A study of Mus musculus with 4 samples.

Results

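The genes described here encode the machinery that licenses and copies chromosomal DNA, and they were followed in primary neural stem/progenitor cells (NSCs) with and without the chromatin remodeler Chd5. The 46 genes were chosen by name from the 18169 rows of 1 table, and each name had exactly 1 row. No measured value entered the rule of choice, although earlier results of these data were known when it was made. All 46 passed the minimum mean of 1 TPM that left 12576 rows for testing. Stranded libraries of poly(A) RNA had been sequenced from cultures of 2 wild-type (+/+) and 2 Chd5-/- C57BL/6 mice, every culture grown from the tissue around the ventricles of 1 newborn pup in medium with EGF and FGF2. The growth notes place the pups at postnatal day 1, whereas the age entries name days 1 and 2 for +/+ and days 3 and 4 for Chd5-/-, so that by those entries age and genotype cannot be told apart. The study asked how Chd5 governs the activation and proliferation of NSCs, and the comparison here is whether transcripts of the replication machinery differed with the genotype by more than replicates of one genotype did.

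Chromosomes are copied once per cell cycle because origins are licensed and fired in separate phases. In G1 the origin recognition complex (ORC), Cdc6 and Cdt1 load the ring-shaped MCM2-7 helicase onto DNA, and geminin later blocks Cdt1. In S phase the kinase Cdc7 with its partner Dbf4, together with cyclin-dependent kinase, recruits Cdc45 and the GINS complex, which turn MCM2-7 into the active CMG helicase. DNA polymerase alpha-primase then starts each strand, the RFC loader places the PCNA clamp, polymerases delta and epsilon extend, RPA covers unwound DNA, and Fen1 and Lig1 join Okazaki fragments. Many of these genes are known targets of E2F transcription factors, which are active when cells commit to S phase.

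The bases before the members' starts were therefore searched for E2F-type letters (TTCCCGC with its variant TTCGCGC, and TTGCCGC with its variant TTGGCGC, on either strand, where a match on one strand may overlap a match on the other). RefSeq (GRCm38.p6) gave 47 windows of 250 bases before a start for 38 members, and none for Mcm4, Gmnn, Gins1, Gins2, Gins4, Rfc2, Prim2 and Pole. The letters were present in 18 of the 47 windows (38.3%), against 14.3% of the 11855 windows of genes that were tested and 7.89% of all 32851 windows. A match describes letters and is no evidence of binding. Windows are printed for 4 subunits of the helicase, to show that members of 1 complex differ in these letters. All 4 lie outside the GENCODE gene and read 5' to 3' on the strand of the gene, with matches in capitals. Mcm5 (chr8:75109259-75109508, plus strand) and Mcm6 (chr1:128359706-128359955, minus strand) hold the letters, and Mcm2 (chr6:88898781-88899030, minus strand) and Mcm3 (chr1:20820313-20820562, minus strand) do not. Bases after the RefSeq start were found in a GENCODE transcript of the gene for Mcm2 and Mcm3, but not for Mcm5 and Mcm6. The starts of the latter thus rest on RefSeq alone.

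Mcm5: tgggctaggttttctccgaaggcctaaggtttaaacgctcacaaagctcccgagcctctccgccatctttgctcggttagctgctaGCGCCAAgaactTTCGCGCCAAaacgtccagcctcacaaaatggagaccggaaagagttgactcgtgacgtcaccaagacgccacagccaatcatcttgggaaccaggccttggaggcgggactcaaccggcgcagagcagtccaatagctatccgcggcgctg

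Mcm6: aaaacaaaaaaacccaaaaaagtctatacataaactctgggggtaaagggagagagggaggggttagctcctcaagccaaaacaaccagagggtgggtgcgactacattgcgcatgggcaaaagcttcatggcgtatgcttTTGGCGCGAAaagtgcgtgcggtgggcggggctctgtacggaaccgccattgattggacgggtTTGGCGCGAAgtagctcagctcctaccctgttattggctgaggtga

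Mcm2: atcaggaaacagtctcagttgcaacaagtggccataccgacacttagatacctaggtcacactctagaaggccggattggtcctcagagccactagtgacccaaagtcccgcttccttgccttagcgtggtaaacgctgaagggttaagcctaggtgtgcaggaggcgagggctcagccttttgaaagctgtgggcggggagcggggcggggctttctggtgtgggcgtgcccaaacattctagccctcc

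Mcm3: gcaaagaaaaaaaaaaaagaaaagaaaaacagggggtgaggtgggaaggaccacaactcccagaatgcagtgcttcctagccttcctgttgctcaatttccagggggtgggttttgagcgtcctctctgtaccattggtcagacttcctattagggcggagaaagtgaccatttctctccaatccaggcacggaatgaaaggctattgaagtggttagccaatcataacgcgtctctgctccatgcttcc

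The 17 members with a match in any window had log2 differences from -0.47 to 0.86 with a median of -0.0070, and the 21 members whose windows held none ranged from -0.58 to 1.57 with a median of 0.30. With trends in GC content and length removed, these medians were -0.078 and -0.054.

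Values are TPM, a transcript abundance scaled to a common total, which divide by transcript length and so allow levels of different genes to be set side by side, but which hold no record of read depth. The columns summed to between 1000015 and 1000031 TPM, and the 46 genes together took 0.174% and 0.139% of them in +/+ and 0.178% and 0.133% in Chd5-/- cultures. Chd5 itself was at 0.39 and 0.37 TPM in +/+ cultures, compared with 0.06 and 0.04 TPM in Chd5-/- cultures, which do not overlap but are all under the minimum for testing. The 10 NSC markers summed to 8007.10 and 6570.33 TPM in +/+ and to 3545.52 and 5944.63 TPM in Chd5-/- cultures. Most of each sum was Fabp7, at 5891.59 and 4315.73 TPM in +/+ and 1938.77 and 3822.43 TPM in Chd5-/- cultures. Of the 10, Sox2 (200.69 to 441.66 TPM), Vim (1067.86 to 1502.02 TPM) and Nes (60.88 to 94.66 TPM) were present in every sample. Prom1 (0.99 to 45.27 TPM, highest in Chd5-/- replicate 1) and Hes5 (1.16 to 43.69 TPM, highest in Chd5-/- replicate 2) varied widely. Chd5-/- replicate 1 stood apart from the other cultures in other cell type markers. The 8 mesenchymal genes summed to 175.87 TPM there and to between 5.10 and 12.53 TPM elsewhere. This was mainly through Fn1 (154.09 TPM), with Acta2 at 9.55, Col3a1 at 7.41, Dcn at 4.17, Lum at 0.37 and Col1a1 at 0 TPM there. The 8 astrocyte genes summed to 978.58 TPM there and to between 2435.40 and 2809.12 TPM elsewhere. Slc1a3 was the largest part of this sum in every sample (442.25 TPM there and 1005.58 to 1871.05 TPM elsewhere). Gfap, S100b, Slc1a2 and Aldoc were also lowest there, whereas Gja1, Aqp4 and Aldh1l1 were lowest in +/+ replicate 1. In Chd5-/- replicate 2 the summed levels of the 8 oligodendrocyte lineage genes (1224.22 TPM) and the 10 neuronal genes (924.24 TPM) were the highest, against at most 682.44 and 567.06 TPM elsewhere, with Rbfox3 at 0 TPM in 3 samples and 0.07 in +/+ replicate 1. The neuronal sum was mostly Map2 (784.89 TPM in Chd5-/- replicate 2), while Gap43 was highest in Chd5-/- replicate 1 (147.89 TPM) and Elavl3 in +/+ replicate 1 (12.34 TPM). The 5 ependymal genes summed to 4.39 and 5.01 TPM in +/+ cultures, compared with 10.82 and 14.48 TPM in Chd5-/- cultures, the 4 endothelial rows to between 1.17 and 19.60 TPM, and the 2 microglial rows to at most 0.62 TPM. The part of these cells in the values below was not tested.

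No replication gene passed the test for a difference between genotypes, and the median of the members lay close to that of all genes. A genotype difference is given as the Chd5-/- mean minus the +/+ mean of log2(TPM + 1), which understates changes of genes at low TPM. The median over the 46 members was 0.27, against 0.34 over all rows tested, so relative to other genes the members lay lower by 0.071. In limma's test with Benjamini-Hochberg adjustment over all 12576 rows, 0 members had an adjusted p under 0.05 (smallest adjusted p = 0.126, for Pold1), where 0.0557% of all rows did. At an unadjusted p under 0.05 there were 4 members higher in Chd5-/- NSCs (8.70%), namely Pold1, Pold2, Rfc2 and Rpa1, and 0 lower, against 21.9% of all rows higher and 2.27% lower. This split depended on the scaling between samples, which moved the median of all rows to between -0.052 and 0.13. With median-of-ratios scaling it was 3 and 7 (all rows 11.1% and 11.99%) and with quantile normalization 2 and 2 (8.78% and 8.14%). With totals set without the 20 rows of highest TPM it was 3 and 3 (14.9% and 6.51%), and with trends in GC content and length removed 1 and 2 (5.11% and 6.42%). Without +/+ replicate 2 the numbers were 0 and 0 (5.75% and 0.644%), and without Chd5-/- replicate 1 they were 2 and 7 (27.8% and 7.50%).

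In 13 members (28.3%) the lower Chd5-/- culture exceeded the higher +/+ culture, against 46.3% of all rows tested, and in 7 (15.2%) the higher Chd5-/- culture was below the lower +/+ culture, against 13.0% of all rows. For the other 26 members the genotypes overlapped. Without +/+ replicate 1 or Chd5-/- replicate 2 the number above was 28 or 27, where 57.5% or 61.8% of all rows were above. Without +/+ replicate 2 or Chd5-/- replicate 1 the number below was 16 or 17, where 18.3% or 25.9% of all rows were below. The genotype difference was larger than both replicate differences for 11 members (23.9%), against 46.4% of all rows. Of these, 10 were higher in Chd5-/- NSCs (Pold1, Pold2, Pold3, Rfc2, Lig1, Pola2, Gins4, Rpa1, Rpa2 and Dbf4) and 1 was lower (Mcm4). The median size of the genotype difference was 0.39, and that of the difference between replicates was 0.44 in +/+ and 0.44 in Chd5-/- NSCs. These are unlike measures, because a genotype difference is between means of 2 cultures, which vary less than the single cultures of a replicate difference.

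**Figure D1:**
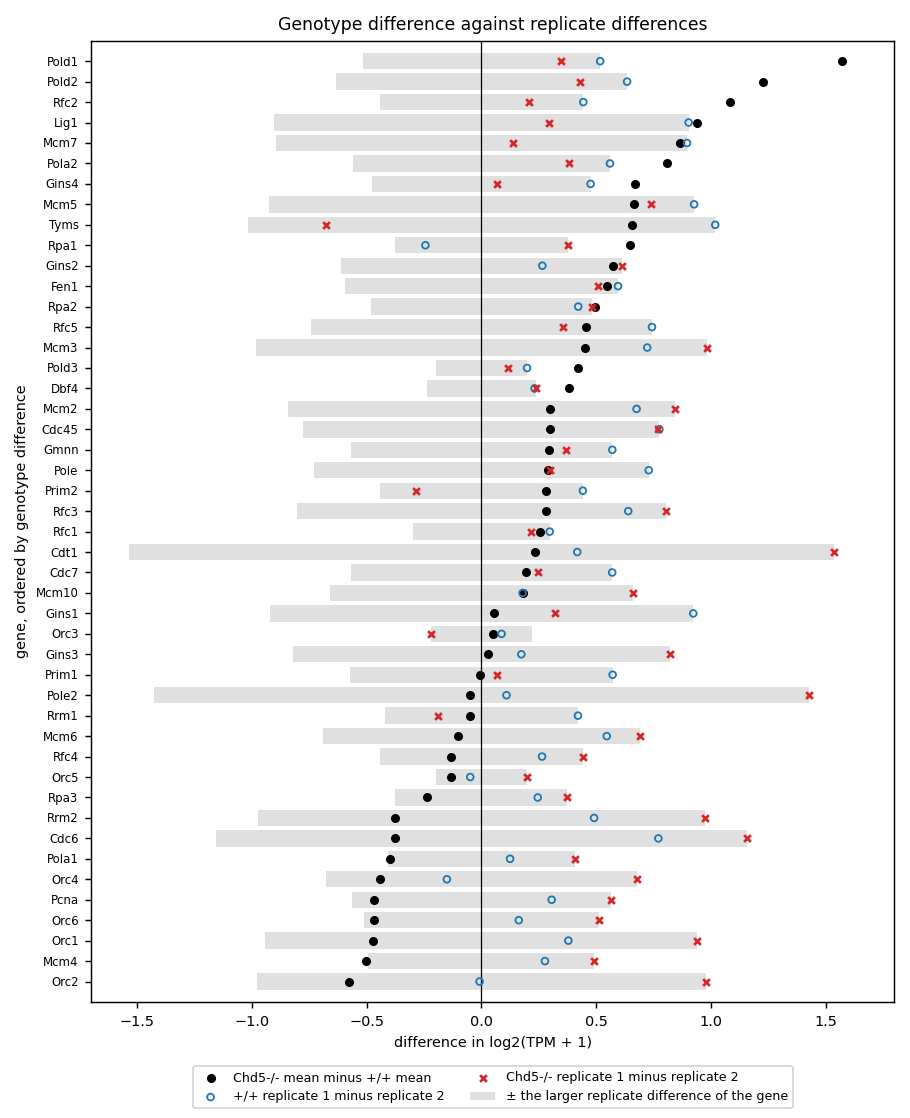
Differences in log2(TPM + 1) for the 46 replication genes, ordered by the genotype difference (black points, Chd5-/- mean minus +/+ mean). Blue rings give +/+ replicate 1 minus 2, red crosses Chd5-/- replicate 1 minus 2, and grey bars the larger replicate difference to either side of 0. For 11 genes the black point lies outside the bar.

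The members also differed between replicates of one genotype, and in the same direction in both. Replicate 1 was above replicate 2 for 42 of 46 members in the +/+ cultures (91.3%), against 66.0% of all rows tested, and for 42 of 46 in the Chd5-/- cultures, against 49.8% of all rows. The median replicate difference of the members was 0.44 in +/+ and 0.42 in Chd5-/- NSCs, against 0.14 and -0.0021 over all rows. The exceptions were Orc2, Orc4, Orc5 and Rpa1 in the +/+ cultures and Orc3, Prim2, Rrm1 and Tyms in the Chd5-/- cultures, so 38 members had both replicate 1 samples above their replicate 2. The replicate numbers are labels of separate pups, and the labels do not say whether cultures of the same number belong together. By the age entries, replicate 1 was the younger culture in both genotypes (day 1 against 2 in +/+, day 3 against 4 in Chd5-/-). By those entries, age and replicate order therefore cannot be told apart. The higher level in replicate 1 was looked for after the values had been seen. It was present under each scaling tried, with 37 to 43 members in +/+ and 41 or 42 in Chd5-/- NSCs.

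The helicase, which unwinds DNA ahead of the fork, was represented by 6 genes with a median genotype difference of 0.38 (-0.20 with GC and length trends removed), of which 0 passed the adjusted threshold. Its summed level was 172.83 and 116.53 TPM in +/+ cultures, compared with 186.96 and 123.80 TPM in Chd5-/- cultures, so that each replicate 1 culture was well above both replicate 2 cultures and the genotypes interleaved. Mcm4 was at 54.30 and 44.64 TPM in +/+ cultures, compared with 41.06 and 28.90 TPM in Chd5-/- cultures. Both Chd5-/- values were thus the lower ones, with a log2 difference of -0.50 (SE 0.27, adjusted p = 0.320). Mcm4 (chromosome 16 of GRCm38, 15623897 to 15637400, minus strand) was the only one of the 46 members that was lower by more than both replicate differences, narrowly, at 0.49 between the Chd5-/- cultures.

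Mcm7 (chromosome 5, 138164583 to 138172422, minus strand) was at 25.95 and 13.48 TPM in +/+ and 36.72 and 33.27 TPM in Chd5-/- cultures. Both Chd5-/- samples were higher, by 0.86 on the log2 scale (SE 0.36, adjusted p = 0.221), but the +/+ replicates differed by 0.90. Mcm7 exons also overlap Mir25 and Mir93 on the same strand, with which reads can be shared. Mcm6 was at 54.64 and 37.10 TPM in +/+ and 53.52 and 32.76 TPM in Chd5-/- cultures, a difference of -0.10 (SE 0.34). Mcm3 was at 17.45 and 10.18 against 26.62 and 12.97 TPM (difference 0.45, SE 0.45). Mcm2 was at 12.04 and 7.16 against 16.02 and 8.49 TPM (difference 0.30, SE 0.42). In each of these genes the replicate 1 samples were the high ones in both genotypes and the genotypes overlapped. Mcm5, at 8.45 and 3.97 against 13.02 and 7.41 TPM, overlapped too (difference 0.66, SE 0.45). Although the subunits form a ring with 1 copy of each, the most abundant transcript exceeded the least abundant 6.47-fold and 11.2-fold in +/+ and 4.11-fold and 4.49-fold in Chd5-/- cultures. These are ratios of transcripts and not of proteins, and the part of GC content in them was not tested.

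The ORC, which marks origins, had the lowest median of the 11 groups as deposited, at -0.45. With GC and length trends removed its median was -0.42, and that of the loading factors and geminin was lower, at -0.70. As deposited, 4 of its 6 subunits were without overlap and lower in Chd5-/- NSCs, where 13.0% of all rows were. None of the 6 had an unadjusted p under 0.05. Orc2 was at 60.59 and 60.93 TPM in +/+ and at 57.18 and 28.53 TPM in Chd5-/- NSCs. The +/+ cultures were nearly equal and the low value came from Chd5-/- replicate 2, with a log2 difference of -0.58 (SE 0.37, adjusted p = 0.381). Without Chd5-/- replicate 1 the difference was -1.06, and without Chd5-/- replicate 2 it was -0.086. Orc6 was at 61.73 and 55.03 TPM against 50.20 and 34.90 TPM, a difference of -0.47 (SE 0.27, adjusted p = 0.336). Orc4 was at 52.32 and 58.18 TPM against 51.28 and 31.70 TPM (difference -0.44, SE 0.30). In all of Orc2, Orc4 and Orc6 the lowest sample was Chd5-/- replicate 2, and the other Chd5-/- sample was closer to the +/+ values than to it.

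Orc5 was at 54.91 and 56.83 TPM in +/+ and 54.64 and 47.45 TPM in Chd5-/- cultures, and Chd5-/- replicate 1 was nearly level with the lower +/+ value (difference -0.13, SE 0.22). Orc3 was at 47.28 and 44.43 TPM against 43.87 and 51.28 TPM and overlapped (difference 0.048, SE 0.22). Orc1, a known E2F target, was the lowest of the 6 subunits in every sample. It was at 2.03 and 1.33 TPM in +/+ and 1.65 and 0.38 TPM in Chd5-/- cultures, where Chd5-/- replicate 1 fell between the +/+ values (difference -0.47, SE 0.46, adjusted p = 0.554, and -0.93 with a pseudocount of 0.1). Orc2 exons overlap those of Nif3l1 and Orc4 exons those of Acvr2a on the opposite strand, and the sources used here do not state whether counting used strand. Members of other groups have overlaps too, among them Gins2 with Gse1 (2758 bases) and Fen1 with Gm10143 (1909 bases) on the opposite strand. On the same strand, Orc5 overlaps Gm15421, Pole2 overlaps Gm49384 and Rpa1 overlaps Gm47300.

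Among the loading factors and their inhibitor, Cdt1 and Cdc6 had wide gaps between the Chd5-/- cultures. Cdt1 was at 4.41 and 3.05 TPM in +/+ cultures, compared with 8.38 and 2.23 TPM in Chd5-/- cultures, so the Chd5-/- samples held both the highest and the lowest value. Cdc6 was at 5.11 and 2.58 TPM against 4.37 and 1.41 TPM. The Chd5-/- replicates differed by 1.54 for Cdt1 and 1.16 for Cdc6 on the log2 scale, and the genotype differences were 0.23 (SE 0.57) and -0.38 (SE 0.53). Gmnn, which encodes geminin, was at 34.15 and 22.67 TPM against 39.18 and 30.09 TPM and overlapped (difference 0.29, SE 0.30). Of the firing kinase, Dbf4 was at 27.17 and 22.99 TPM in +/+ and 35.79 and 30.18 TPM in Chd5-/- cultures. Both Chd5-/- values were higher, by 0.38 (SE 0.24, adjusted p = 0.379), and the replicate differences were 0.23 and 0.24. Its catalytic partner Cdc7 was at 18.21 and 11.94 TPM against 18.65 and 15.54 TPM and overlapped (difference 0.19, SE 0.31).

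The genes that convert the loaded helicase into the CMG complex all had genotype differences above 0 as deposited, from 0.030 for Gins3 to 0.67 for Gins4. After median-of-ratios scaling, however, Gins1, Gins3, Cdc45 and Mcm10 were below 0, as were these and Gins2 after quantile normalization or with GC and length trends removed. Gins4, the most abundant of them, was at 26.30 and 18.63 TPM in +/+ and 36.71 and 35.02 TPM in Chd5-/- cultures. The Chd5-/- cultures were close to each other and both above the +/+ cultures (SE 0.27, adjusted p = 0.209). Gins2 was at 4.59 and 3.65 TPM against 8.38 and 5.13 TPM, also without overlap (difference 0.57, SE 0.35). The helicase cofactor Cdc45 was at 11.24 and 6.15 TPM against 14.03 and 7.81 TPM, Gins1 at 13.66 and 6.73 TPM against 11.34 and 8.88 TPM, Gins3 at 6.74 and 5.86 TPM against 8.89 and 4.60 TPM, and Mcm10, which helps fire origins, at 5.66 and 4.88 TPM against 7.92 and 4.65 TPM. In these 4 genes the genotypes overlapped, and all 6 genes of the group were higher in replicate 1 of both genotypes.

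Pcna, the sliding clamp that holds polymerases on DNA, was the most abundant member. It was at 359.42 and 290.50 TPM in +/+ cultures, compared with 284.23 and 191.80 TPM in Chd5-/- cultures. The upper Chd5-/- value came close to the lower +/+ value without reaching it, with a log2 difference of -0.47 (SE 0.29, adjusted p = 0.366) and replicate differences of 0.31 and 0.56. Pcna (chromosome 2, 132249162 to 132253314, minus strand) has the processed pseudogenes Pcna-ps1 and Pcna-ps2 in GENCODE, so its value is uncertain where reads were divided among copies.

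Among the genes of the clamp loader, Rfc2 stood out. It was at 13.27 and 9.49 TPM in +/+ and 26.84 and 23.11 TPM in Chd5-/- cultures, a 2.19-fold higher mean and a log2 difference of 1.08 (SE 0.28, unadjusted p = 0.0109, adjusted p = 0.130). The genotypes were far apart relative to replicate differences of 0.44 and 0.21. Rfc2 (chromosome 5, 134581366 to 134601805, plus strand) overlaps exons of Lat2 on the opposite strand. The other loader subunits, which assemble with Rfc2, overlapped or nearly met between genotypes. Rfc1 was at 54.22 and 43.93 TPM against 63.10 and 54.24 TPM, where the genotypes all but met. Rfc4 was at 51.98 and 43.11 TPM against 50.45 and 36.90 TPM, Rfc3 at 36.54 and 23.09 TPM against 47.21 and 26.63 TPM, and Rfc5 at 14.97 and 8.54 TPM against 18.18 and 13.98 TPM. Those 3 genes overlapped between genotypes, with log2 differences of -0.13, 0.28 and 0.46.

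As deposited, the largest genotype differences were those of Pold1 and Pold2, of polymerase delta, which extends the lagging strand. Pold1, its catalytic subunit (chromosome 7, 44532746 to 44548849, minus strand), was at 0.99 and 0.39 TPM in +/+ cultures, compared with 4.58 and 3.39 TPM in Chd5-/- cultures. Every Chd5-/- value was several times every +/+ value, and the ratio of means was 5.78. Both +/+ values were near the floor. Their mean of 0.69 TPM was under the minimum of 1 TPM, which Pold1 passed only through its Chd5-/- values. The log2 difference was 1.57 (SE 0.38, unadjusted p = 0.00791, adjusted p = 0.126), and without Chd5-/- replicate 2 it was 1.75. With a pseudocount of 0.1 the difference of Pold1 was 2.47. Pold2, an accessory subunit (chromosome 11, 5872180 to 5878292, minus strand), was at 4.87 and 2.78 TPM against 11.78 and 8.49 TPM, a ratio of 2.65 and a log2 difference of 1.23 (SE 0.36, unadjusted p = 0.0186, adjusted p = 0.149). Pold3 was at 19.58 and 16.93 TPM against 25.78 and 23.70 TPM and was likewise higher in both Chd5-/- samples (difference 0.42, SE 0.24, adjusted p = 0.335). The 3 delta subunits were thus without overlap and higher, as were 46.3% of all rows. Trend removal left them at 0.52, 0.21 and 0.097.

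Both genes of polymerase epsilon, which extends the leading strand, overlapped between genotypes. Pole was at 10.04 and 5.66 TPM against 10.63 and 8.45 TPM (difference 0.29, SE 0.36). Pole2 was at 11.19 and 10.30 TPM in +/+ and 17.59 and 5.91 TPM in Chd5-/- cultures, which lay on both sides of the +/+ values (difference -0.050, SE 0.51). Of alpha-primase, Pola2 was at 7.98 and 5.09 TPM against 13.80 and 10.36 TPM and was higher in both Chd5-/- samples (difference 0.81, SE 0.33, adjusted p = 0.221). The catalytic subunit Pola1 was lower in both, at 31.54 and 28.84 TPM against 26.20 and 19.50 TPM (difference -0.40, SE 0.26, adjusted p = 0.386). Pola1 lies on chromosome X. Xist was between 214.52 and 474.50 TPM in the 4 samples and the 3 Y-linked genes in the table were at most at 0.07 TPM. The primase subunits Prim1 (41.26 and 27.43 TPM against 34.33 and 32.68 TPM) and Prim2 (21.01 and 15.20 TPM against 19.78 and 24.34 TPM) overlapped, with differences of -0.0070 and 0.28.

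RPA, which protects unwound DNA, was mixed as well. Rpa1, its large subunit, was at 66.17 and 78.55 TPM in +/+ cultures, compared with 129.32 and 99.40 TPM in Chd5-/- cultures. Both Chd5-/- values were above both +/+ values, by 0.65 on the log2 scale (SE 0.25, unadjusted p = 0.0446, adjusted p = 0.196). Rpa2 was at 15.72 and 11.48 TPM against 23.03 and 16.21 TPM and the genotypes came close to each other without overlap (difference 0.49, SE 0.31). Rpa3 was at 98.31 and 82.77 TPM against 87.24 and 67.05 TPM and overlapped (difference -0.24, SE 0.25). Of the enzymes that finish Okazaki fragments, Lig1, the ligase, was at 16.56 and 8.39 TPM against 26.24 and 21.23 TPM. Its genotypes did not overlap, and the difference of 0.94 (SE 0.38, adjusted p = 0.212) was slightly larger than that between the +/+ replicates, 0.90. The flap nuclease Fen1 was at 8.79 and 5.48 TPM against 12.91 and 8.77 TPM, where one sample of each genotype met at nearly the same level (difference 0.55, SE 0.36).

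The genotypes overlapped for all 3 genes of deoxynucleotide supply. Rrm1, the large subunit of ribonucleotide reductase, was at 113.94 and 84.85 TPM in +/+ and 88.87 and 101.36 TPM in Chd5-/- cultures (difference -0.051, SE 0.25). Its partner Rrm2 was at 120.26 and 85.27 TPM against 109.51 and 55.26 TPM (difference -0.38, SE 0.39). The thymidylate synthase gene Tyms was at 9.66 and 4.26 TPM against 8.35 and 13.93 TPM (difference 0.66, SE 0.46). In Tyms the Chd5-/- replicates differed in the direction opposite to most members, by -0.68. Tyms has the processed pseudogene Tyms-ps in GENCODE, so its value is uncertain in the same way as that of Pcna.

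**Figure D2:**
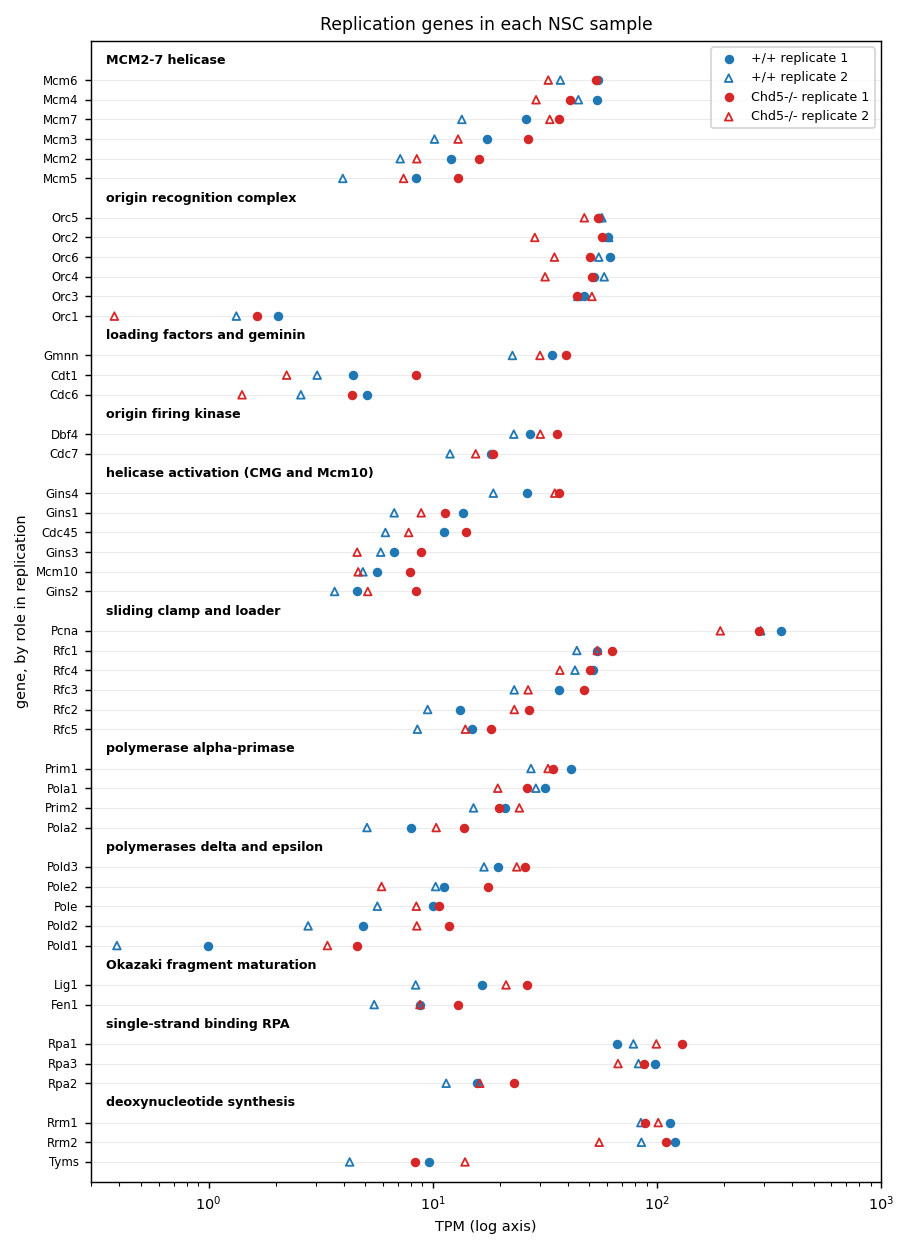
TPM of the 46 replication genes in each sample on a log axis, grouped by role, with blue for +/+, red for Chd5-/-, filled circles for replicate 1 and open triangles for replicate 2. Triangles lie to the left of the circles of their colour for 42 genes in each genotype, and in Pold1, Pold2 and Rfc2 both red symbols lie to the right of both blue ones.

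The genotype difference of a member went with the base composition of its transcript. GC content of the longest GENCODE transcript ranged from 34.2% for Rpa3 to 61.0% for Pold1 and was known for all 46 members. Across the 46 genes, which share the same 4 libraries and are no independent replicates, Spearman's rho between GC content and genotype difference was 0.68, and between length and genotype difference 0.0097. The 23 members of lower GC content had a median difference of -0.051, with 3 above and 7 below without overlap. The 23 of higher GC content had a median of 0.46, with 10 above and 0 below, where 46.3% of all rows of any GC content were above and 13.0% below. A relation with GC content was also present between the +/+ replicates (rho = 0.53) and was weaker between the Chd5-/- replicates (rho = 0.19). No rho was computed over all rows, so the relation is not shown to be particular to the members. Removing the trends in GC content and length also moved the median of all rows. It was 0.34 over all rows tested and -0.037 over the 12103 rows fitted.

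With each sample's trend in GC content and length removed over all rows, 19 members were above 0 and 27 below, and their median was -0.080 against -0.037 for the 12103 rows fitted. Both Chd5-/- samples then lay above for 6 members and below for 6, where 20.6% and 26.9% of all rows did. The highest value was then that of Rfc2, which as deposited had been below Pold1 and Pold2, at 0.65 (SE 0.23, unadjusted p = 0.0403, adjusted p = 0.418), followed by Pola2 at 0.58 and Dbf4 at 0.55. Pold1 was reduced to 0.52 (SE 0.32) and Pold2 to 0.21 (SE 0.27). Likewise reduced were Rpa1 to 0.32, Lig1 to 0.25, Mcm7 to 0.19 and Gins4 to 0.12. The lowest values were those of Cdc6 (-0.72, SE 0.52), Cdt1 (-0.70, SE 0.56) and Orc1 (-0.68, SE 0.43). Lower at an unadjusted p under 0.05 were Orc6 (-0.66, SE 0.21, adjusted p = 0.417) and Pcna (-0.65, SE 0.24, adjusted p = 0.422). The replicate order of the members was hardly touched, with replicate 1 above replicate 2 for 43 members in +/+ and 41 in Chd5-/- NSCs, against 52.8% and 48.3% of all rows.

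**Figure D3:**
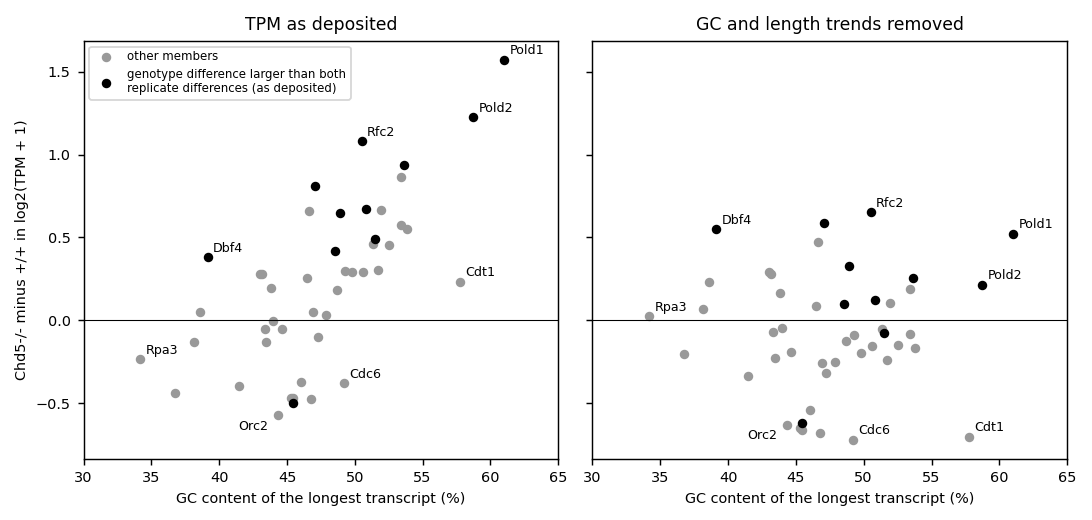
Genotype difference in log2(TPM + 1) of the 46 replication genes against the GC content of the longest transcript in percent, as deposited (left) and with each sample's GC and length trends removed (right). Black points are the 11 genes whose difference as deposited was larger than both replicate differences. The slope seen on the left (rho = 0.68) falls to rho = 0.050 on the right.

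Other genes of the cell cycle were set beside the members. Of 44 further replication genes (accessory subunits, checkpoint mediators, chromatin assembly and nucleotide enzymes), 42 were tested with a median difference of 0.15. None passed the adjusted threshold, 8 were higher and 0 lower at an unadjusted p under 0.05, and 14 were above and 9 below without overlap, against 21.9%, 2.27%, 46.3% and 13.0% of all rows. With GC and length trends removed the median was -0.090. The 3 of smallest p were Pold4, the small subunit of polymerase delta, the thymidine kinase Tk1 and the dCTP pyrophosphatase Dctpp1. Pold4 was at 11.25 and 8.58 TPM in +/+ and 35.02 and 24.23 TPM in Chd5-/- cultures (difference 1.48, adjusted p = 0.120 by limma), and its genotypes did not overlap. Tk1 was at 3.48 and 1.33 TPM against 8.17 and 7.60 TPM (difference 1.46), and Dctpp1 at 7.35 and 2.42 TPM against 20.17 and 12.91 TPM (difference 1.68). Trend removal left 0.47 for Pold4, 0.88 for Tk1 and 0.60 for Dctpp1.

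Of 28 genes for E2F and Rb proteins and the G1/S cyclins, kinases and inhibitors, none passed the adjusted threshold. At an unadjusted p under 0.05, 5 were higher and 2 lower, against 21.9% and 2.27% of all rows. Their median was 0.22 (-0.12 with GC and length trends removed). The inhibitor gene Cdkn2a has 2 rows, of which only the one with the highest mean TPM was used. In that row it was at 2.68 and 5.22 TPM in +/+ and 14.34 and 12.34 TPM in Chd5-/- cultures. Rb1, which restrains E2F, was at 115.70 and 125.17 TPM against 59.47 and 72.89 TPM, with a log2 difference of -0.86 (SE 0.22, adjusted p = 0.130) that was -0.78 with GC and length trends removed. E2f4, a repressor E2F, was at 6.80 and 4.79 TPM against 14.03 and 11.94 TPM (difference 1.05). With the trends removed the differences of Cdkn2a and E2f4 were 0.44 and 0.18, against 1.58 and 1.05 as deposited.

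The 30 mitotic genes differed from the replication genes in how the Chd5-/- cultures were ordered. Their median genotype difference was 0.72 (0.49 with GC and length trends removed), with 0 past the adjusted threshold. There were 17 above and 0 below without overlap, against 46.3% and 13.0% of all rows, and 8 higher at an unadjusted p under 0.05, against 21.9% of all rows. In the +/+ cultures all 30 were higher in replicate 1, as were most replication genes. In the Chd5-/- cultures 28 of the 30 were higher in replicate 2, the exceptions being Mad2l1 and Pttg1, with a median replicate 1 minus replicate 2 of -0.65 against 0.42 for the replication genes. Cdc20, the activator of the anaphase-promoting complex, was at 11.57 and 4.42 TPM in +/+ and 23.57 and 43.36 TPM in Chd5-/- cultures. Ccnb2, a mitotic cyclin, was at 18.72 and 9.26 TPM against 28.78 and 70.61 TPM, and the kinase gene Aurka at 10.87 and 6.52 TPM against 16.84 and 24.47 TPM. Their differences were 2.00, 1.70 and 1.17 as deposited, and 1.15, 1.27 and 0.62 with the trends removed. Chd5-/- replicate 2 was thus the highest sample for these 3 mitotic genes, whereas for Cdt1, Mcm3 and Pole2 the highest was Chd5-/- replicate 1. The opposite order held under each scaling tried, with 28 or 29 mitotic genes and 4 or 5 replication genes not higher in replicate 1. In bulk RNA, fewer cells in a phase and less RNA per cell cannot be told apart, and the part of the marker differences of Chd5-/- replicate 1 in this order was not tested.

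**Figure D4:**
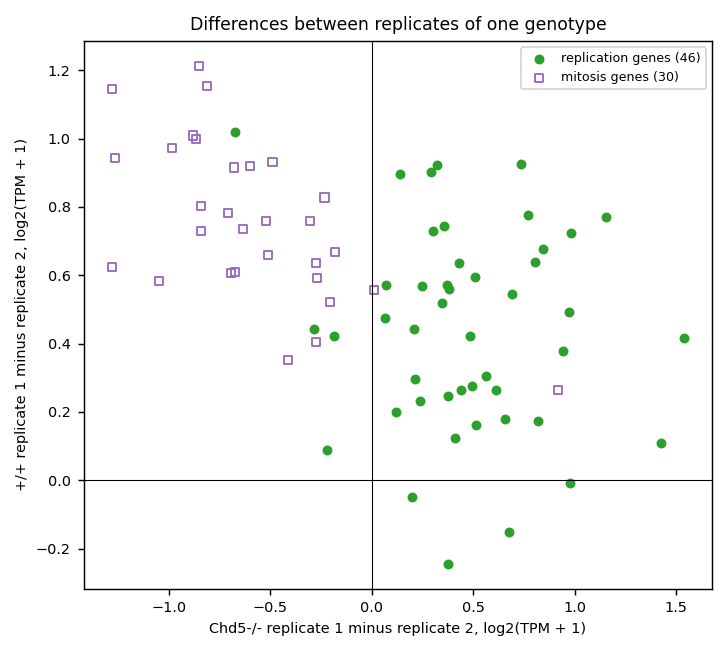
Replicate 1 minus replicate 2 in log2(TPM + 1), in the Chd5-/- cultures (horizontal axis) and the +/+ cultures (vertical axis), for 46 replication genes (filled circles) and 30 mitotic genes (open squares). Nearly all points are above 0 on the vertical axis, while 42 circles lie to the right and 28 squares to the left of 0 on the horizontal axis.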

How the data were processed

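RNA-seq of 2 +/+ and 2 Chd5-/- NSC cultures was analysed from 1 table of TPM values that the authors deposited, used as it stands. The submitters' processing notes name Bowtie2 2.2.3, RSEM 1.2.20 and mm10, while the gene annotation is not given in the sources used here. WT and Hom columns were matched to the samples by name. TPM keeps no depth, so precision rests on the 2 samples per genotype. A rise of abundant genes lowers all others.

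Rows averaging 1 TPM or more were fitted on log2(TPM + 1) with limma 3.58.1 in R 4.3.3 (eBayes with a trend, two-sided), adjusted by Benjamini-Hochberg over all rows. An exact permutation of 2 samples against 2 cannot go below p = 0.333. Code was tested on simulated data. The members, gene lists and tests were chosen with earlier results of these data known. By the naming rule, sample values were due for MCM2 to MCM7, Pcna, the 5 highest and 5 lowest differences, members with an unadjusted p under 0.05 and the most abundant member of each group; they are given for all. Other genes named are the 3 of smallest p in each list, Chd5 and, beside Pola1, Xist and the Y-linked genes. Cell type lists serve only as values.

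GC content, length and coordinates came from GENCODE M21 (GRCm38, the assembly of mm10) and covered 96.2% of rows. Trends were fitted by loess (span 0.5). Of 47 promoter windows, 41 read in the direction of a transcript and 0 in reverse. Alternatives were pseudocounts of 0.1 and 5, other minima, scalings, the trend removal, a replicate block, eBayes without a trend and leaving out each sample. Tables and figures were made with Python 3.11.15, pandas 2.3.3 and matplotlib 3.10.9.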

Additional observations from a re-analysis of the deposited data

How the results depend on the processing

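With 2 cultures per genotype, unknown depth and age entries that go with genotype, calls on single genes are weak. Under the 11 alternatives that leave out no sample, 0 members passed the adjusted threshold. Under those of the 15 settings in which they were tested, 18 members kept the sign of their difference, 11 higher and 7 lower. The minimum mean of 10 TPM left only 32 members tested. The share of all rows that kept their sign was not counted, so this number has no background beside it. The numbers of members higher and lower at an unadjusted p under 0.05 were 3 and 7 with median-of-ratios scaling, 2 and 2 with quantile normalization, 3 and 3 with rescaling (totals set without the 20 rows of highest TPM), and 1 and 2 with the GC and length trend removed. Members above and below without overlap were 7 and 14 with median-of-ratios scaling (all rows 28.3% and 32.0%), 7 and 15 with quantile normalization (24.3% and 30.01%), 9 and 11 after rescaling (35.0% and 23.7%), and 6 and 6 with the trend removed (20.6% and 26.9%). The cause was not tested. Of the mitotic genes, 1 was higher in Chd5-/- replicate 1 after quantile normalization or rescaling. Without the minimum of 1 TPM the members' median lay above that of all rows by 0.074. The labels do not say that a replicate number marks a shared litter or day. Deviations of same-numbered samples correlated at r = -0.15 across 12576 rows. With the replicate block, 4 members were higher and 0 lower at an unadjusted p under 0.05, as without it, against 16.8% and 1.42% of all rows. With this block 0 members passed the adjusted threshold. With the replicate block and the trend removal together, 0 were higher and 1 lower, against 3.43% and 3.88% of all rows. There 6 lay above without overlap, against 20.6% of all rows. A fit that leaves out a sample assumes that the lone sample varies like the other genotype. Over these, 0 to 1 members passed the adjusted threshold (Orc2 without Chd5-/- replicate 1, Pold1 without Chd5-/- replicate 2), 0 to 5 were higher and 0 to 7 lower at an unadjusted p, 13 to 28 lay above and 7 to 17 below, and the members' median relative to all rows ranged from -0.34 to 0.13. Log2 differences of other sign than as deposited were Cdc45 -0.074, Prim2 -0.11, Mcm10 -0.17, Gins1 -0.32, Orc3 -0.36, Dbf4 -0.020, Rfc1 -0.15, Cdc7 -0.20, Pole -0.079, Rfc3 -0.12, Mcm2 -0.076, Gins3 -0.33, Cdt1 -0.092, Gmnn -0.11 for median-of-ratios scaling. With quantile normalization they were Cdc45 -0.27, Prim2 -0.087, Fen1 -0.035, Mcm10 -0.46, Gins1 -0.51, Orc3 -0.15, Cdc7 -0.25, Pole -0.30, Rfc5 -0.022, Rfc3 -0.0064, Mcm2 -0.24, Gins3 -0.59, Gins2 -0.076, Cdt1 -0.38. After rescaling they were Mcm10 -0.022, Gins1 -0.16, Orc3 -0.18, Cdc7 -0.029, Gins3 -0.18. With the trend removed, with or without the replicate block, they were Cdc45 -0.090, Fen1 -0.17, Mcm10 -0.13, Gins1 -0.26, Rpa2 -0.078, Orc5 0.066, Pole -0.16, Rfc5 -0.054, Rpa3 0.025, Mcm2 -0.24, Gins3 -0.25, Gins2 -0.082, Cdt1 -0.70, Gmnn -0.20, Mcm3 -0.15. Ranges with 1 sample left out that include both signs were Cdc45 -0.089 to 0.69, Cdc6 -0.96 to 0.20, Cdc7 -0.092 to 0.48, Cdt1 -0.54 to 1.00, Gins1 -0.41 to 0.51, Gins3 -0.38 to 0.44, Mcm10 -0.15 to 0.51, Mcm2 -0.12 to 0.72, Mcm3 -0.040 to 0.94, Mcm6 -0.45 to 0.24, Orc3 -0.062 to 0.16, Pole -0.075 to 0.65, Pole2 -0.76 to 0.66, Prim1 -0.29 to 0.28, Rfc3 -0.12 to 0.68, Rfc4 -0.35 to 0.090, Rrm1 -0.26 to 0.16, Rrm2 -0.86 to 0.11.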
